A study of Homo sapiens with 6 samples.

Results

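MALAT1, NEAT1 and the genes of 4 paraspeckle proteins (NONO, SFPQ, PSPC1 and RBM14) were followed in RNA that had been precipitated with J2, an antibody against double-stranded RNA. The 6 genes were chosen by name. They match 7 of the 60675 gene identifiers in the count table, because MALAT1 has 2, and 6 of the 7 had enough counts to be tested, among 13275 tested genes. The cells were OCI-AML2, an established human acute myeloid leukaemia line, and all carried a short hairpin RNA construct. In 3 libraries it was directed at SUPV3L1 (SUV3), and in the other 3 at PNPT1 (PNPase). SUPV3L1 is a mitochondrial RNA helicase and PNPT1 is the exoribonuclease with which it degrades mitochondrial RNA. Libraries of cells without a knockdown and libraries of RNA before precipitation were not analysed here. The comparison is therefore SUPV3L1 knockdown against PNPT1 knockdown, and a gene's expression and its recovery by the antibody cannot be told apart, nor can fewer cells and less RNA per cell. The sources used here do not say if replicates carried the same hairpin. Each library title carries a different number, whose meaning they do not give.

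Paraspeckles are nuclear bodies built on NEAT1, a long noncoding RNA that is kept in the nucleus. NONO, SFPQ and PSPC1 form the DBHS family of RNA-binding proteins, which pair with each other and coat NEAT1, and RBM14 is a further protein needed for paraspeckles to form. Paraspeckles are also known for holding RNAs with double-stranded inverted repeats, which NONO binds. MALAT1, made from the neighbouring gene, is an abundant nuclear RNA of nuclear speckles, bodies rich in splicing factors. MALAT1 and the long form of NEAT1 lack an ordinary poly(A) tail, which the short form of NEAT1 has. RNase P cuts a tRNA-like RNA off MALAT1 and long NEAT1, and U-rich motifs before the cut fold onto an A-rich tract at the new end.

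That shared end is shown because it is the feature that MALAT1 and the long form of NEAT1 have in common in their sequence. The lines below give, from the GENCODE 29 transcripts of GRCh38, the last 100 bases before the tRNA-like RNA and then the tRNA-like RNA itself, all on the plus strand of chromosome 11. Capitals mark runs of at least 8 bases that the MALAT1 and NEAT1 sequences share. The positions are chr11:65506017-65506116 and chr11:65506117-65506173 for MALAT1, and chr11:65445441-65445540 and chr11:65445541-65445598 for NEAT1.
MALAT1 end: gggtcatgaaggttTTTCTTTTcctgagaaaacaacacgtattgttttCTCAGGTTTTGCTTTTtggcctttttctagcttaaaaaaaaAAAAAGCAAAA
NEAT1 end: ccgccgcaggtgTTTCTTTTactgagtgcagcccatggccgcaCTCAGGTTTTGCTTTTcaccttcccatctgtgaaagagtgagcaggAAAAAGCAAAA
MALAT1 tRNA-like RNA: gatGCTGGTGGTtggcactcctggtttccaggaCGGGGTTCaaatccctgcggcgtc
NEAT1 tRNA-like RNA: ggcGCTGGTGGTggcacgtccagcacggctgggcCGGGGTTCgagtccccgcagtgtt

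The ends share 3 such runs in the same order. TTTCTTTT was present in the last 100 bases of 244 of 13117 transcripts compared (1.86%). AAAAAGCAAAA was present in 11 (0.0839%) and the 16-base run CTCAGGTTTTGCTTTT in 1. NEAT1 was itself among the transcripts compared and is included in each number, so no other compared end held the 16-base run. The rest of the ends differs: MALAT1 has an A run of 13 bases and 32% GC, and NEAT1 an A run of 5 bases and 50% GC. The tRNA-like RNAs match at 40 of 59 alignment columns (67.8%), with 16 mismatches and 3 gap positions. These matches describe the letters only. The tRNA-like RNA of each gene has an identifier of its own in the table, named mascRNA-menRNA, and both had 0 counts in the 6 libraries. That of MALAT1 lies within the annotated gene, where a read on both may be counted for neither. The 0 counts therefore do not show absence. In the deposited FPKM (fragments scaled to gene length and depth), the NEAT1 one had 0.829, 0.441 and 0.448 in the SUPV3L1 knockdown, against 0.470, 0 and 0 in the PNPT1 knockdown. The MALAT1 one had at most 2e-06 FPKM.

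Because J2 binds double-stranded RNA, each gene's longest annotated transcript was also searched for its longest pair of exactly complementary stretches, without G-U pairs. NEAT1 had a pair of 27 bases, at positions 14387 to 14413 and 14416 to 14442 of its 22743-base transcript, separated by a loop of 2 bases. The MALAT1 pair was 16 bases long, at positions 6546 to 6561 and 8336 to 8351 of 8708. They read, 5′ to 3′, with no part in capitals:
NEAT1 first arm: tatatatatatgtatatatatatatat
NEAT1 second arm: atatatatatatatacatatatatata
MALAT1 first arm: gcttttttttttttta
MALAT1 second arm: taaaaaaaaaaaaagc

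The mRNAs of the 4 proteins had shorter pairs, of 13 bases in SFPQ, 12 in RBM14, 11 in NONO and 10 in PSPC1, beside a median of 12 bases over 13173 transcripts. An arm as long as that of NEAT1 occurred in 3.12% of all those transcripts, and in 47.1% of the 17 that were at least as long as NEAT1. For MALAT1 the shares were 11.4% of all transcripts and 44.7% of the 751 at least as long. Each of these sets includes the gene itself. Long transcripts thus often held such pairs, and whether these stretches were bound by the antibody was not measured.

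On the genome (GRCh38), NEAT1 (ENSG00000245532) lies at chr11:65422774-65445540 and MALAT1 (ENSG00000251562) at chr11:65497688-65506516, both on the plus strand, with 52147 bases between them. RBM14 (ENSG00000239306) lies 1110065 bases beyond MALAT1 on the same strand, at chr11:66616582-66627347. NONO (ENSG00000147140) is at chrX:71283192-71301168 on the plus strand. SFPQ (ENSG00000116560) at chr1:35176378-35193148 and PSPC1 (ENSG00000121390) at chr13:19674752-19783019 are on the minus strand. Counts were taken per gene, over exons that sum to 22767 bases in NEAT1, 8829 in MALAT1, 7426 in SFPQ, 5292 in NONO, 4817 in PSPC1 and 3937 in RBM14. The deposited values do not separate the short and long forms of NEAT1. Entries named NEAT1_1, NEAT1_2 and NEAT1_3 are annotated fragments of 120, 105 and 159 bases near the start of the gene, not those forms, and had 0 counts. They lie within NEAT1 on the same strand, so 0 counts do not show that no reads fell there.

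**Figure D1:**
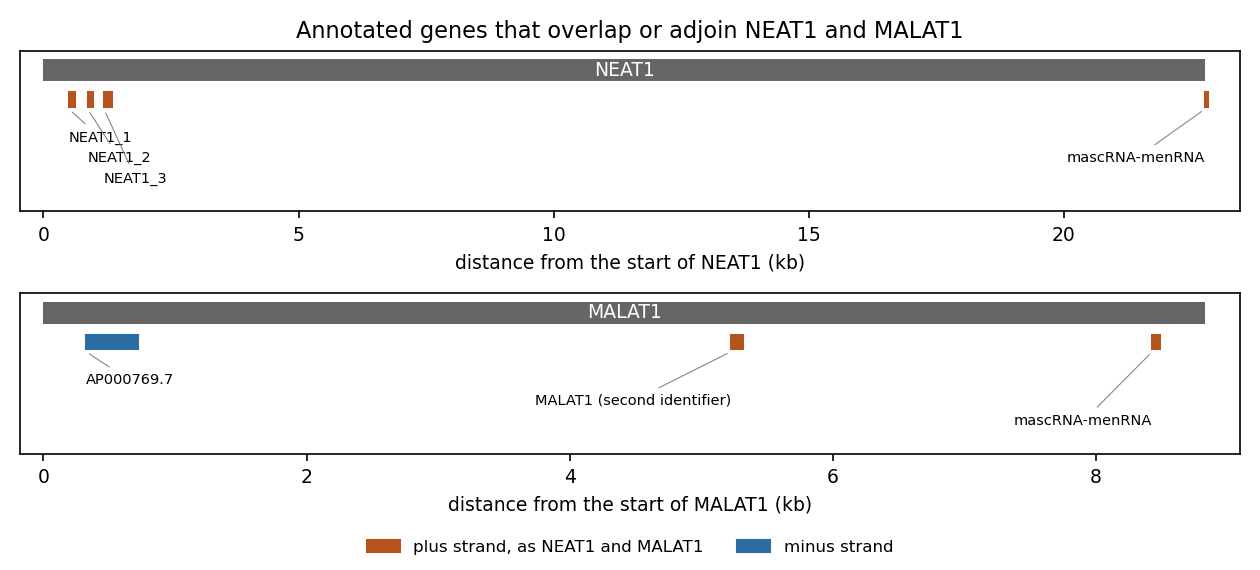
Genes annotated within or next to NEAT1 (top) and MALAT1 (bottom), drawn to scale against the distance in kb from the start of each; orange marks the plus strand and blue the minus strand. The table's entries drawn here had 0 counts in every library, except AP000769.7 on the strand opposite to MALAT1, which had 1 count in 1 library. For an entry within a gene on the same strand, 0 counts do not show absence. MIR612, annotated within NEAT1, was not matched in the table and is not drawn.

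Assigned counts were 11361371, 10008797 and 9378264 in the SUPV3L1 knockdown libraries and 8352570, 10464630 and 5852090 in the PNPT1 knockdown libraries. PNPT1 knockdown replicate 3 stood apart: it had the highest share of alignments that were not unique (80.1%, against 65.7% to 71.6% in the other 5 libraries), the fewest genes detected (16620, against 20765 to 22393) and the lowest share of counts on mitochondrial genes (11.3%, against 21.66% to 41.98%). PNPT1 itself had 36.2, 27.5 and 21.4 CPM (counts per library size, with TMM factors) in the SUPV3L1 knockdown, against 7.64, 18.9 and 17.1 CPM in its own knockdown. SUPV3L1 had 12.1, 12.2 and 9.39 CPM in its own knockdown, against 11.5, 18.1 and 25.8 CPM in the PNPT1 knockdown. Neither target passed the test, with edgeR adjusted p = 0.898 for both. The 7 myeloid and AML markers, CD33, SPI1 and MPO among them, summed to 299 to 476 CPM in the SUPV3L1 knockdown and 278 to 457 CPM in the PNPT1 knockdown. Markers of T cells, B cells, erythroid, epithelial and fibroblast cells, 3 for each type, summed to no more than 1.09 CPM per type in any library.

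No member differed between the knockdowns past an adjusted p of 0.05 (edgeR, quasi-likelihood, Benjamini-Hochberg), and neither did any other tested gene (0% called). None of the 6 was at an unadjusted p under 0.05, where 4.09% of tested genes were. The knockdown groups overlapped in CPM for all 6, while 8.56% of tested genes had groups that did not overlap. DESeq2 called 0.139% of genes and no member. NEAT1 was the member with a positive log2 fold change (SUPV3L1 over PNPT1), and the other 5 had negative ones. A p that misses the threshold does not show that a gene was equal in both knockdowns.

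MALAT1 was among the genes with the most counts in the precipitate, 5th or 6th by CPM in every library. It had 107511, 100168 and 157528 counts in the SUPV3L1 knockdown libraries and 126130, 99215 and 85537 counts in the PNPT1 knockdown libraries. Its level was 8812, 9418 and 17004 CPM in the SUPV3L1 knockdown, against 12515, 8637 and 21823 CPM in the PNPT1 knockdown. Each knockdown had 1 library well above its other 2, and the ranges crossed. The means were 11745 ± 4565 CPM in the SUPV3L1 knockdown and 14325 ± 6777 CPM in the PNPT1 knockdown (SD, n = 3 each), a log2 fold change of −0.29 ± 0.64 (SE; edgeR adjusted p = 0.946). Without PNPT1 knockdown replicate 3, the log2 fold change turned to 0.14.

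As a share of assigned counts, MALAT1 made up 0.946%, 1.00% and 1.68% in the SUPV3L1 knockdown and 1.51%, 0.948% and 1.46% in the PNPT1 knockdown. PNPT1 knockdown replicate 3 was thus highest by CPM but not by share, since its TMM factor was 0.67 and those of the other 5 libraries were 0.988 to 1.21. The mean shares were 1.21 ± 0.409% in the SUPV3L1 knockdown and 1.31 ± 0.311% in the PNPT1 knockdown (SD, n = 3 each), and the difference of −0.0977 percentage points was within their spread (two-sided exact permutation test p = 0.9, where 0.1 is the smallest that 3 against 3 libraries allow). With mitochondrial genes left out of the total the difference was 0.327 percentage points, in the opposite direction. Per length, MALAT1 ranked 18th of 13176 genes by mean counts. By mean deposited FPKM it ranked 63rd among all 60675 identifiers. The second MALAT1 identifier (ENSG00000278217), a 95-base fragment within the gene, had 0 counts in all libraries and 2.76 to 11.7 FPKM (fragments scaled to gene length and depth) in the deposited FPKM table.

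NEAT1 had fewer counts, and they were less even between libraries. It had 13581, 5730 and 13906 counts in the SUPV3L1 knockdown libraries and 7976, 7906 and 2613 counts in the PNPT1 knockdown libraries. Its level was 1113, 539 and 1501 CPM in the SUPV3L1 knockdown, against 791, 688 and 667 CPM in the PNPT1 knockdown. SUPV3L1 knockdown replicates 1 and 3 were above all PNPT1 knockdown libraries, and SUPV3L1 knockdown replicate 2 was below all of them. The means were 1051 ± 484 CPM in the SUPV3L1 knockdown and 715 ± 66.7 CPM in the PNPT1 knockdown (SD, n = 3 each), a log2 fold change of 0.55 ± 0.45 (SE; edgeR adjusted p = 0.898). Of all tested genes, 14.9% had a log2 fold change at least as high.

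Without SUPV3L1 knockdown replicate 2, the NEAT1 log2 fold change was 0.86, and leaving out any other library gave values down to 0.21, with no adjusted p past the threshold. LYZ, the lysozyme gene of myeloid cells, named outside the rule given below, was also lowest in replicate 2 within the SUPV3L1 knockdown. It had 1489, 343 and 1327 CPM in the SUPV3L1 knockdown libraries, against 36.5, 180 and 143 CPM in the PNPT1 knockdown. Within the PNPT1 knockdown the match failed, as replicate 1 had the highest NEAT1 (791 CPM) and the lowest LYZ. Any part of LYZ in the NEAT1 values was not tested. As a share of counts, NEAT1 made up 0.108 ± 0.0465% in the SUPV3L1 knockdown and 0.0719 ± 0.0256% in the PNPT1 knockdown (SD, n = 3 each; exact permutation p = 0.3).

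**Figure D2:**
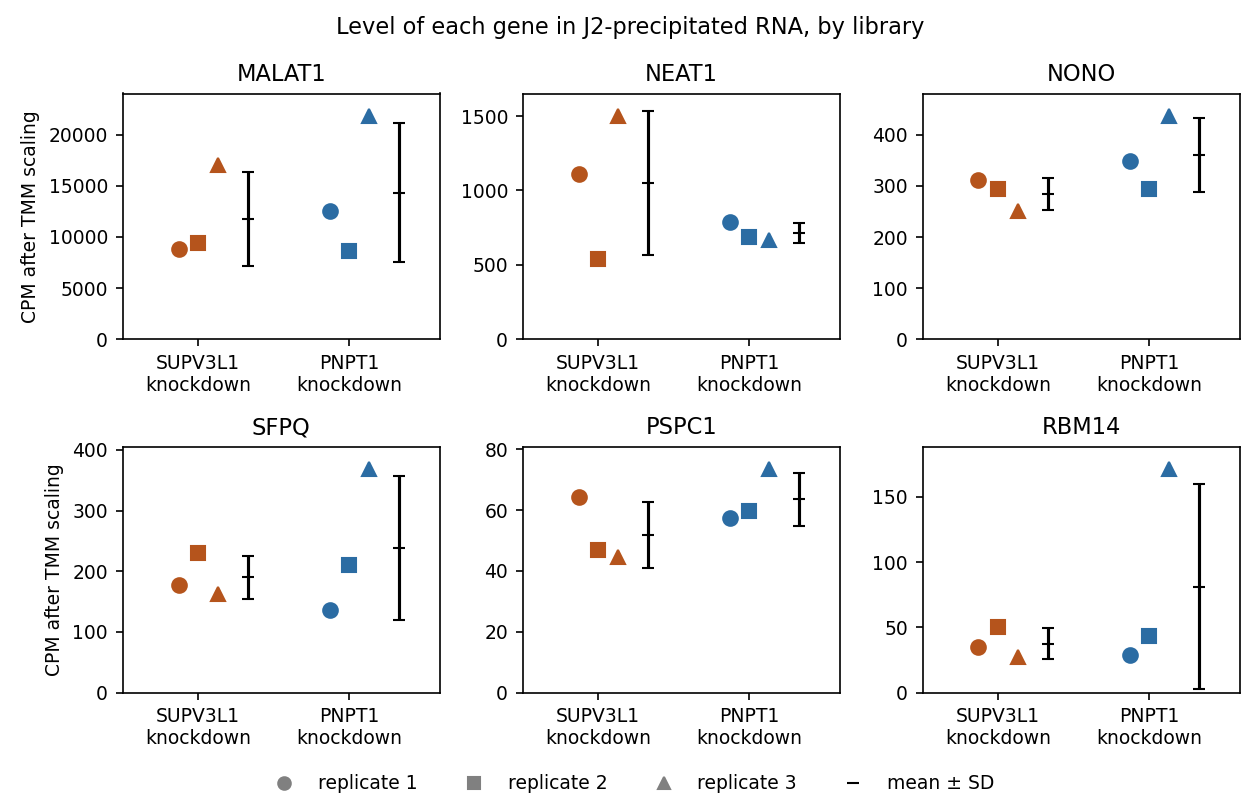
Level of each of the 6 genes in CPM after TMM scaling (linear axes from 0), one point per library, with SUPV3L1 knockdown left and PNPT1 knockdown right; lines mark means and bars the SD (n = 3 each). The groups overlap in every panel, and PNPT1 knockdown replicate 3 is the highest point for 5 of the 6 genes, NEAT1 being the exception, as it is for 30.6% of tested genes; in the deposited FPKM it is highest for 1 of the 6 and for 9.24% of tested genes.

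The balance between the lncRNA pair was set within each library, where the scaling between libraries drops out. MALAT1 counts were 7.92, 17.5 and 11.3 times those of NEAT1 in the SUPV3L1 knockdown and 15.8, 12.5 and 32.7 times in the PNPT1 knockdown. Per kilobase, the excess of MALAT1 was 20.4, 45.1 and 29.2 times in the SUPV3L1 knockdown and 40.8, 32.4 and 84.4 times in the PNPT1 knockdown. MALAT1 thus exceeded NEAT1 in all 6 libraries, most in PNPT1 knockdown replicate 3. The log2 ratio of NEAT1 to MALAT1 counts was −3.54 ± 0.57 in the SUPV3L1 knockdown and −4.22 ± 0.72 in the PNPT1 knockdown (SD, n = 3 each), a difference of 0.68 (exact permutation p = 0.3; adjusted over 7 shares and ratios, 0.525). The difference was 0.28 without PNPT1 knockdown replicate 3 and 0.41 without SUPV3L1 knockdown replicate 1.

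NONO, a partner of SFPQ in transcription and splicing, had the most counts per length of the 4 protein genes. Its level was 311, 293 and 251 CPM in the SUPV3L1 knockdown, against 348, 294 and 437 CPM in the PNPT1 knockdown. PNPT1 knockdown replicates 1 and 3 were above all SUPV3L1 knockdown libraries, and replicate 2 lay among them. The means were 285 ± 31.0 CPM in the SUPV3L1 knockdown and 360 ± 72.4 CPM in the PNPT1 knockdown (SD, n = 3 each), with a log2 fold change of −0.34 ± 0.33 (SE; edgeR adjusted p = 0.899). Leaving out each library in turn gave −0.47 to −0.18.

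SFPQ, the family's splicing and transcription factor and an essential paraspeckle protein, had 177, 230 and 163 CPM in the SUPV3L1 knockdown, against 137, 210 and 368 CPM in the PNPT1 knockdown. The PNPT1 knockdown held both the lowest and the highest library. The means were 190 ± 35.1 CPM in the SUPV3L1 knockdown and 238 ± 118 CPM in the PNPT1 knockdown (SD, n = 3 each), with a log2 fold change of −0.33 ± 0.40 (SE; edgeR adjusted p = 0.911). The sign was not stable: it was 0.13 without PNPT1 knockdown replicate 3 and 0.014 in the deposited FPKM (limma, log2 of FPKM + 0.1), a scale on which the median of all genes also moved up by 0.17.

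PSPC1, the family member first named as a paraspeckle marker, had 64.3, 46.8 and 44.6 CPM in the SUPV3L1 knockdown, against 57.5, 59.7 and 73.5 CPM in the PNPT1 knockdown. SUPV3L1 knockdown replicate 1 lay within the PNPT1 knockdown range and its other replicates below it. The means were 51.9 ± 10.8 CPM in the SUPV3L1 knockdown and 63.6 ± 8.64 CPM in the PNPT1 knockdown (SD, n = 3 each), with a log2 fold change of −0.29 ± 0.30 (SE; edgeR adjusted p = 0.903). In the deposited FPKM (limma, log2 of FPKM + 0.1) it was −0.034. An antisense gene at its end (PSPC1-AS2) had at most 3 counts in any library and RN7SL166P, inside the gene on the same strand, 7 to 17 counts.

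RBM14 had the member change of greatest size in CPM, and it rested on 1 library. Its counts were 427, 538 and 251 in the SUPV3L1 knockdown and 292, 497 and 671 in the PNPT1 knockdown, although PNPT1 knockdown replicate 3 was the shallowest library. Its level was 35.0, 50.6 and 27.1 CPM in the SUPV3L1 knockdown, against 28.97, 43.3 and 171 CPM in the PNPT1 knockdown. PNPT1 knockdown replicates 1 and 2 lay within the SUPV3L1 knockdown range, and replicate 3 was 3.38 times the highest of the other 5 libraries. The means were 37.6 ± 12.0 CPM in the SUPV3L1 knockdown and 81.1 ± 78.3 CPM in the PNPT1 knockdown (SD, n = 3 each), with a log2 fold change of −1.10 ± 0.59 (SE; edgeR unadjusted p = 0.0919, adjusted p = 0.898).

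Without PNPT1 knockdown replicate 3, the RBM14 log2 fold change was 0.051. With all libraries it was −0.43 in the deposited FPKM (limma, log2 of FPKM + 0.1), where that of NEAT1, at 0.50, was larger in size. In the deposited FPKM, RBM14 was also highest in that library, at 18.1 FPKM, against 7.67, 10.1 and 5.26 FPKM in the SUPV3L1 knockdown and 5.74 and 9.55 FPKM in the other PNPT1 knockdown libraries. The read-through gene RBM14-RBM4, which shares the first part of RBM14, had 18, 6 and 3 counts in the SUPV3L1 knockdown and 4, 8 and 17 counts in the PNPT1 knockdown. RBM4, the next gene of that read-through and itself a paraspeckle protein, had 6.23, 7.43 and 7.77 CPM in the SUPV3L1 knockdown, against 7.94, 6.88 and 53.6 CPM in the PNPT1 knockdown. It was high in the same library.

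**Figure D3:**
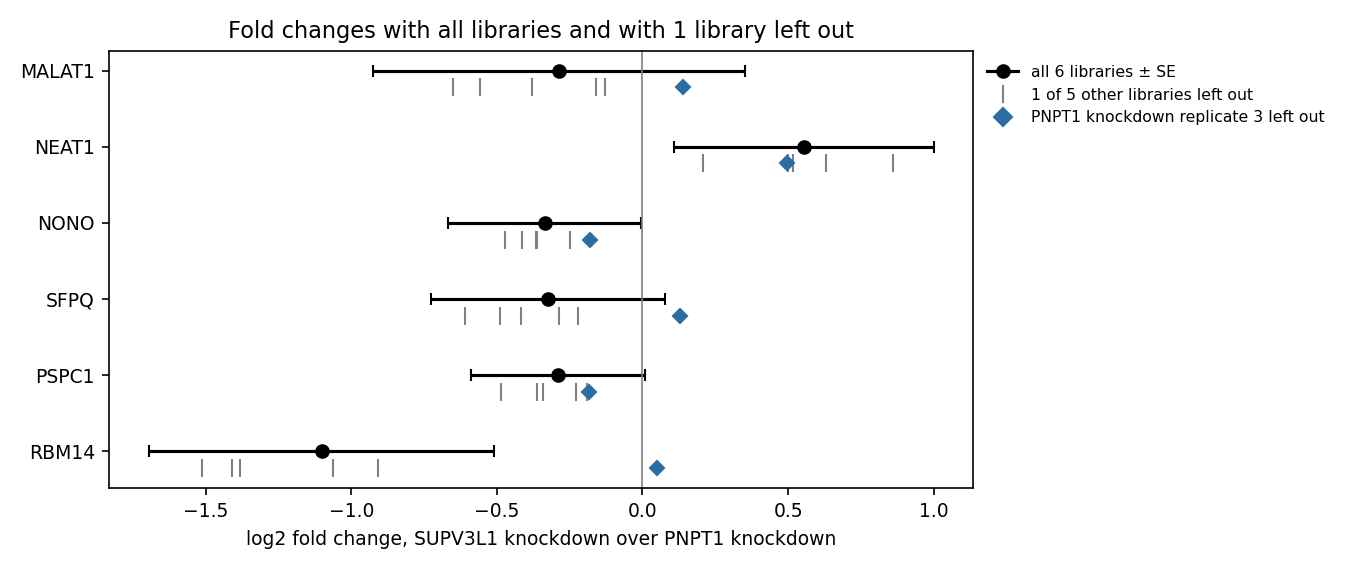
Log2 fold change (SUPV3L1 over PNPT1 knockdown, edgeR) of the 6 genes with its SE, and the values when each library is left out in turn. Diamonds mark the values without PNPT1 knockdown replicate 3. The SE bars of MALAT1, SFPQ and PSPC1 cross 0, and RBM14 lies at −1.10 with all libraries and at 0.051 without PNPT1 knockdown replicate 3.

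The members were ordered by level only per length. In the deposited FPKM, MALAT1 ranged from 805 to 1557 over the 6 libraries, above all other members with no overlap. NONO ranged from 36.3 to 60.7 FPKM, NEAT1 from 16.9 to 53.8, SFPQ from 14.1 to 24.1, RBM14 from 5.26 to 18.1 and PSPC1 from 6.19 to 11.2. Below MALAT1, each neighbour in that order overlapped the next. NONO exceeded NEAT1 in FPKM by 2.04 and 1.17 times in SUPV3L1 knockdown replicates 2 and 1 and by 1.77, 1.68 and 2.31 times in the PNPT1 knockdown, but was 0.675 times NEAT1 in SUPV3L1 knockdown replicate 3.

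Among the DBHS genes, the proportions differed between the knockdowns by less than the spread of the libraries. NONO exceeded SFPQ in FPKM by 2.72, 1.85 and 2.48 times in the SUPV3L1 knockdown and by 4.32, 2.13 and 2.08 times in the PNPT1 knockdown. NONO exceeded PSPC1 by 4.22, 5.71 and 5.45 times in the SUPV3L1 knockdown and by 6.16, 4.69 and 6.28 times in the PNPT1 knockdown. In counts, the log2 ratio of PSPC1 to NONO was −2.47 ± 0.19 in the SUPV3L1 knockdown and −2.49 ± 0.17 in the PNPT1 knockdown, and that of SFPQ to NONO −0.59 ± 0.23 in the SUPV3L1 knockdown and −0.69 ± 0.58 in the PNPT1 knockdown (SD, n = 3 each; exact permutation p = 0.9 for both). The SFPQ to NONO ratio spread most in the PNPT1 knockdown, where the libraries gave −1.35, −0.49 and −0.25.

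The 4 protein genes together took 0.0631%, 0.0659% and 0.0479% of counts in the SUPV3L1 knockdown, against 0.0689%, 0.0666% and 0.0703% in the PNPT1 knockdown. This was the one share or ratio of the 7 whose groups did not overlap. The means were 0.0590 ± 0.00967% in the SUPV3L1 knockdown and 0.0686 ± 0.00191% in the PNPT1 knockdown (SD, n = 3 each; exact permutation p = 0.1, the smallest possible, and 0.525 adjusted over the 7). With mitochondrial genes left out of the total, the difference of −0.00963 percentage points became 0.00674, and mitochondrial genes took 34.4%, 33.6% and 41.98% of counts in the SUPV3L1 knockdown, against 21.7%, 26.6% and 11.3% in the PNPT1 knockdown. The log2 ratio of NEAT1 to the 4 protein genes, which no library total enters, was 0.92, −0.20 and 1.63 in the SUPV3L1 knockdown and 0.47, 0.18 and −0.66 in the PNPT1 knockdown (exact permutation p = 0.3).

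**Figure D4:**
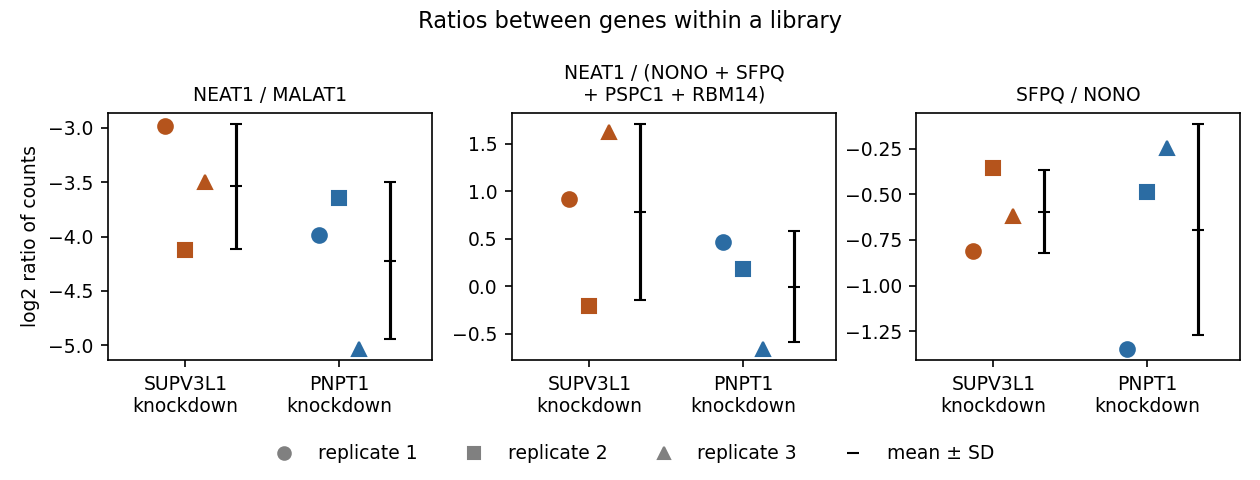
Log2 ratios of counts within a library (NEAT1 to MALAT1, NEAT1 to the 4 protein genes, SFPQ to NONO), one point per library, with SUPV3L1 knockdown left and PNPT1 knockdown right; lines mark means and bars the SD (n = 3 each). The groups overlap in each panel, and PNPT1 knockdown replicate 3 has the lowest NEAT1 ratios, at −5.03 and −0.66.

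Other proteins known from paraspeckles were described as a list of 32 genes, 33 identifiers since MATR3 has 2, and all were tested. None was called by edgeR. Of the 33, 9 had a log2 fold change above 0 and 24 below, with a median of −0.23, beside a median of 0.0093 over all tested genes, of which 6729 were above 0 and 6546 below. Without PNPT1 knockdown replicate 3 the list's median was 0.030. HNRNPA1, an abundant RNA-binding protein of the list, averaged 797 ± 202 CPM in the SUPV3L1 knockdown and 1153 ± 610 CPM in the PNPT1 knockdown (SD, n = 3 each).

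The list held 3 of 33 identifiers at an unadjusted p under 0.05, all lower in the SUPV3L1 knockdown, where 4.09% of all tested genes were under it (226 higher and 317 lower), and none passed after adjustment. MATR3, a nuclear matrix RNA-binding protein, had 23.2, 18.3 and 36.5 CPM for ENSG00000015479 in the SUPV3L1 knockdown, against 58.5, 25.3 and 140 CPM in the PNPT1 knockdown (log2 fold change −1.52 ± 0.55 SE, unadjusted p = 0.0204 and adjusted p = 0.898, edgeR). HNRNPH1, a splicing regulator, had 297, 425 and 291 CPM in the SUPV3L1 knockdown, against 449, 376 and 1572 CPM in the PNPT1 knockdown (−1.24 ± 0.56 SE, unadjusted p = 0.0485 and adjusted p = 0.898, edgeR). RBM4, with the levels given above, had a log2 fold change of −1.64 ± 0.71 (SE; unadjusted p = 0.0431 and adjusted p = 0.898, edgeR). PNPT1 knockdown replicate 3 was the highest library for each. Without it the log2 fold change was −0.70 for MATR3, −0.30 for HNRNPH1 and −0.062 for RBM4. MATR3 values are uncertain, because its identifiers overlap. Its other identifier, ENSG00000280987, went the other way at low levels. It averaged 5.02 ± 2.12 CPM in the SUPV3L1 knockdown and 3.50 ± 1.30 CPM in the PNPT1 knockdown (SD, n = 3 each). The log2 fold change was 0.51 ± 0.55 (SE; edgeR adjusted p = 0.905). CIRBP, a cold-induced RNA-binding protein named here after its values were seen, was the 1 list member whose groups did not overlap, against 8.56% of all tested genes, at 32.6, 38.6 and 35.5 CPM in the SUPV3L1 knockdown, against 47.2, 47.7 and 44.1 CPM in the PNPT1 knockdown (−0.38 ± 0.28 SE, edgeR adjusted p = 0.898).

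Proteins of nuclear speckles, where MALAT1 resides, gave 28 tested genes of 28, with 10 above 0, 18 below, a median of −0.23 and none called by edgeR. The median was 0.12 without PNPT1 knockdown replicate 3, and 0.052 in the deposited FPKM (log2 of FPKM + 0.1). SRRM2, SON and PRPF8, large proteins of the speckle core and the spliceosome, averaged 786 ± 126, 371 ± 43.4 and 359 ± 33.4 CPM in the SUPV3L1 knockdown, against 723 ± 41.0, 320 ± 31.6 and 359 ± 45.7 CPM in the PNPT1 knockdown. The list held 2 of 28 genes at an unadjusted p under 0.05, CLK1 and U2AF1, where 4.09% of all tested genes were under it. CLK1, a kinase of splicing factors, had 22.1, 27.2 and 39.9 CPM in the SUPV3L1 knockdown, against 73.2, 28.4 and 289 CPM in the PNPT1 knockdown. Its log2 fold change was −2.12 ± 0.70 (SE; unadjusted p = 0.0118 and adjusted p = 0.898, edgeR). U2AF1, a subunit of the factor that recognises the 3′ splice site, had 3.69, 3.95 and 3.13 CPM in the SUPV3L1 knockdown, against 4.76, 4.87 and 18.1 CPM in the PNPT1 knockdown. Its log2 fold change was −1.33 ± 0.60 (SE; unadjusted p = 0.0497 and adjusted p = 0.898, edgeR). It was the 1 gene of 28 whose groups did not overlap, against 8.56% of all tested genes. Without PNPT1 knockdown replicate 3 the log2 fold change was −0.79 for CLK1 and −0.43 for U2AF1. U2AF1 has a near-identical copy, so its counts are uncertain. NKTR, a cyclophilin of speckles, averaged 154 ± 19.2 CPM in the SUPV3L1 knockdown and 270 ± 103 CPM in the PNPT1 knockdown (SD, n = 3 each).

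Other nuclear long noncoding RNAs gave 13 tested genes of 15, as MEG3 and HOTAIRM1 had too few counts. Of these, 11 had a log2 fold change above 0 and 2 below, as NEAT1 did and MALAT1 did not, with a median of 0.21, and none reached even an unadjusted p under 0.05. Without PNPT1 knockdown replicate 3 the median was −0.034. HCG18 had 66.5, 93.6 and 61.7 CPM in the SUPV3L1 knockdown, against 28.0, 90.3 and 3.06 CPM in the PNPT1 knockdown. TUG1 averaged 74.2 ± 18.2 CPM in the SUPV3L1 knockdown and 55.1 ± 27.5 CPM in the PNPT1 knockdown, and FTX 30.9 ± 4.87 CPM in the SUPV3L1 knockdown and 22.9 ± 7.90 CPM in the PNPT1 knockdown (SD, n = 3 each). MIR17HG, the host of a microRNA cluster, averaged 10.8 ± 1.70 CPM in the SUPV3L1 knockdown and 6.60 ± 6.22 CPM in the PNPT1 knockdown. OIP5-AS1, with the most counts of the list, averaged 175 ± 18.2 CPM in the SUPV3L1 knockdown and 206 ± 53.4 CPM in the PNPT1 knockdown.

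Genes near NEAT1 and MALAT1 on chromosome 11 were described to set the pair beside their surroundings. Of 18 listed genes, 16 were matched in the table and 12 were tested. Of these, 6 had a log2 fold change above 0 and 6 below, with a median of 0.058 and none at an unadjusted p under 0.05. The median was −0.12 without SUPV3L1 knockdown replicate 3 and −0.0031 without PNPT1 knockdown replicate 2. MAP3K11, a kinase of stress signalling, averaged 21.99 ± 6.48 CPM in the SUPV3L1 knockdown and 14.99 ± 3.36 CPM in the PNPT1 knockdown. SIPA1 averaged 33.3 ± 9.60 CPM in the SUPV3L1 knockdown and 24.2 ± 8.59 CPM in the PNPT1 knockdown, and FRMD8 averaged 9.82 ± 4.96 CPM in the SUPV3L1 knockdown and 6.43 ± 3.86 CPM in the PNPT1 knockdown (SD, n = 3 each). EHBP1L1 had a log2 fold change of −0.14, DPF2, a subunit of a chromatin remodeller, one of −0.016, and KAT5, a histone acetyltransferase, one of −0.15. PCNX3 and TALAM1 were not matched in the table, and CDC42EP2, TIGD3, FAM89B and KCNK7 had too few counts for the test.

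**Figure D5:**
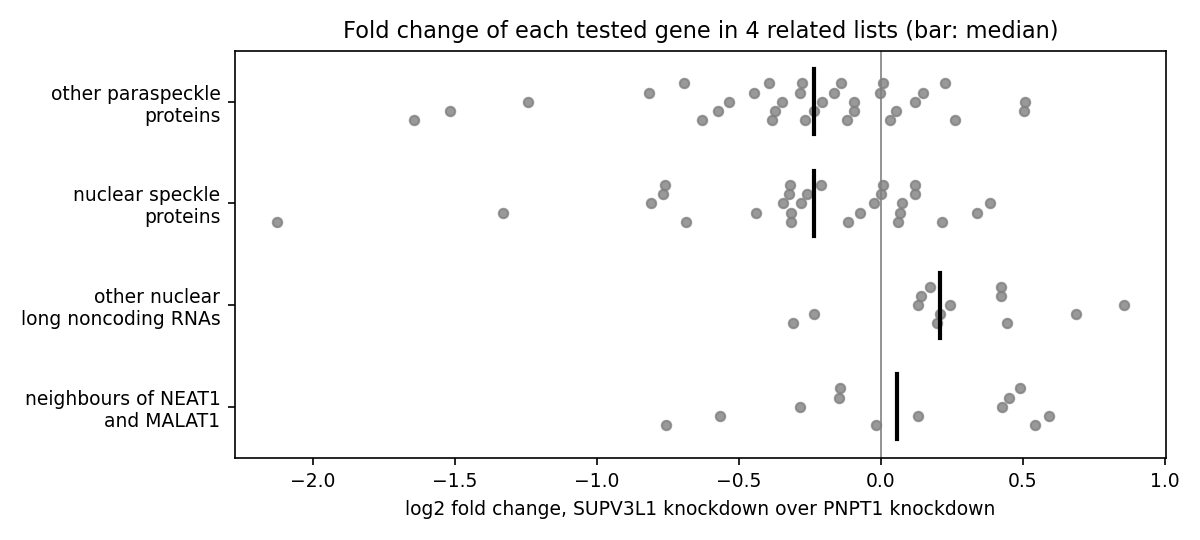
Log2 fold change (SUPV3L1 over PNPT1 knockdown, edgeR) of each tested gene in the 4 lists, one point per gene, with the list median. The lists of paraspeckle and nuclear speckle proteins have medians of −0.23 each, the other nuclear lncRNAs 0.21 and the neighbours 0.058, and no point passed the adjusted threshold.

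The genes whose pattern over the 6 libraries was most like each member's were found by Pearson's r of log2 CPM among 9736 genes with a mean count of at least 50. Such r values describe 6 libraries that share 1 deviating library, and carry no test. For MALAT1 they were FAM189B, RTN3 and FKBP8 (r of 0.994, 0.990 and 0.988), and 41 genes reached 0.95. For NEAT1 they included PEX19 and AL662800.1 (0.981 and 0.980), and 10 genes reached 0.95, the fewest of the 6 members. For NONO they were TAZ, PLK4 and KIF20B (0.990, 0.988 and 0.987), and for PSPC1 DIAPH3, TMOD3 and HIST1H4I (0.995, 0.988 and 0.986). For SFPQ they were SF1, NDUFAF6 and PGRMC1 (0.997, 0.995 and 0.994), and for RBM14 STRN4, GTPBP1 and FUNDC2 (0.996, 0.994 and 0.994). RBM14 had 172 genes at 0.95 or above, NONO and SFPQ 91 each and PSPC1 15. No member was among the 3 genes nearest to another member. Between members, r was highest for SFPQ and RBM14, at 0.964, and so above 0.95. It was 0.831 for NONO and PSPC1 and lower for every other pair. In CPM, NEAT1 had a negative r with each protein gene, from −0.538 (RBM14) to −0.251 (PSPC1). In the deposited FPKM, r was 0.615 for SFPQ and RBM14 and 0.769 for NONO and PSPC1. On that scale the r of NEAT1 was 0.033 with NONO and 0.311 with PSPC1, but −0.627 with SFPQ and −0.912 with RBM14. Its sign with NONO and PSPC1 thus depended on the scale.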

How the data were processed

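RNA precipitated with J2 from 6 libraries was measured by directional RNA-seq, per the labels. The deposited tables hold whole-number read counts per gene made by the authors, and a table of FPKM made by the authors. The submitters' processing notes name HTSeq, StringTie 2.1.4, HISAT2 2.2.1 and SAMtools 1.14, with GRCh38. The sources used here give neither the HTSeq version and strand setting nor the annotation release, so reads of a gene and of its antisense partner may not be told apart.

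The 5 summary lines were left out of library sizes. Of their entries and the gene counts together, 65.7% to 80.1% were alignments that were not unique and 7.06% to 16.0% were assigned to a gene. Reads with several positions give no counts.

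Counts were tested with edgeR 4.0.16 (limma 3.58.1, R 4.3.3), quasi-likelihood, TMM scaling and the default expression filter (minimum count 10, total 15). Adjustment was by Benjamini-Hochberg over all 13275 genes, with a threshold of 0.05. The test was checked on simulated counts with large changes, an even spread and no deviating library. That setting does not gauge its power for the changes reported here. DESeq2 1.42.0, limma on log2 FPKM, other scalings and filters, and leaving out each library were alternatives. Shares and ratios were compared by exact permutation (SciPy 1.17.1). Shares had Wilson 95% intervals of ±0.00972 percentage points or less, which cover counting error only. Replicates were numbered in accession order and pair no libraries. The edgeR p-values set a group difference against the spread between these libraries. The permutation p-values set it among all ways of grouping them.

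Named were the 6 members, genes overlapping them, the 3 nearest by r, and from each list the 3 smallest p and the 3 highest mean CPM. Of these, 2 genes are not reported here. Members and lists were chosen with earlier results of these data known. Exon lengths and sequences came from GENCODE 29.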

Additional observations from a re-analysis of the deposited data

How the results depend on the processing

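The number of genes past the threshold was 0, and 187 without the expression filter, 18 with DESeq2 and 0 to 1 when a library was left out (SERPINA1, without SUPV3L1 knockdown replicate 2). No member was called in any of the 14 alternatives, with adjusted p from 0.313 (RBM14) upward. RBM14 had an unadjusted p under 0.05 in 3 of them. Leaving out each library gave log2 fold changes of −0.65 to 0.14 for MALAT1, 0.21 to 0.86 for NEAT1, −0.47 to −0.18 for NONO, −0.61 to 0.13 for SFPQ, −0.48 to −0.18 for PSPC1 and −1.51 to 0.051 for RBM14. List medians ranged from −0.35 to 0.030 for paraspeckle proteins, −0.38 to 0.12 for speckle proteins, −0.034 to 0.49 for lncRNAs and −0.12 to 0.19 for neighbours, whose median was −0.013 without the filter. Differences in share ranged from −0.333 to 0.0336 percentage points for MALAT1, 0.0165 to 0.0620 for NEAT1 and −0.0131 to −0.00411 for the 4 protein genes. Differences in log2 ratio ranged from 0.28 to 0.98 for NEAT1 over MALAT1, −0.080 to 0.11 for PSPC1 over NONO, −0.23 to 0.32 for SFPQ over NONO and 0.36 to 1.28 for NEAT1 over the 4 protein genes. In FPKM (pseudocounts 0.1 and 1), SFPQ was at 0.014 both times and the speckle list at 0.052 and 0.046, where the median of all genes moved by 0.17 and 0.11. The MALAT1 share differed by 0.327 percentage points without mitochondrial genes and by 0.0146 of summed FPKM, and the 4 protein genes by 0.00674 and 0.000879. The cause of these reversals was not tested. With 3 libraries a group, an exact permutation p cannot go below 0.1. No paired analysis was possible because the labels give no shared replicate numbers.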
